A study of Rattus norvegicus with 12 samples.

Results

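DTL(Shroom3+) is the larger of the 2 descending thin limb clusters that were annotated in single-nucleus RNA sequencing of ZSF1 rat kidneys. Its members were taken as every nucleus that the deposited annotation places in the low-level cluster of that name. There were 3211 such nuclei among 217132 nuclei in all, or 1.48%, which made it the 17th of 25 clusters by size. All 3211 carried the high-level type LOH (loop of Henle). The name credits the cluster with Shroom3. Gene-level counts were not used here. Neither Shroom3 nor any other marker was therefore checked in these nuclei, and the label stands as the annotation gives it.

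The descending thin limb is the segment of the nephron that follows the proximal straight tubule into the medulla. Its flat epithelium is known for high water permeability, through aquaporin 1, and tubular fluid is concentrated along it as part of countercurrent multiplication. Shroom3 is an actin-binding protein that drives apical constriction of epithelial cells, and variants near its human orthologue have been linked to kidney function.

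Kidneys came from male rats of the strain ZSF1-LeprfaLeprcp/Crl, with 3 rats sequenced in each of 4 groups. Lean rats received no treatment. Obese rats, which develop diabetes and kidney disease, were 13 to 14 weeks old at the start and were dosed for 12 weeks with vehicle (Obese), with the soluble guanylate cyclase activator BAY 1101042, or runcaciguat, at 3 mg/kg 2 times a day (Obese+sGCact), or with the stimulator BAY 1165747 at 3 mg/kg 1 time a day (Obese+sGCstim). Both drugs raise cyclic GMP, but they were given at different daily doses, and lean rats received no vehicle, so that genotype and dosing cannot be told apart between Lean and Obese. These were drawn from 6 lean and 10 obese animals per arm, and the sources do not say which part of a kidney was taken for nuclei. Rats are named below as in the deposited table.

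The number of DTL(Shroom3+) nuclei per rat ranged from 75 to 575. Lean rats gave 1392 of them, or 43.4%, against 474 from Obese, 638 from Obese+sGCact and 707 from Obese+sGCstim rats. The 3211 nuclei had 3211 distinct barcodes, and 0 barcodes occurred in more than 1 rat. Between 10488 and 43484 nuclei of all types were retained per rat. In 3 obese rats (RK7_4, RK9_4 and RK61_4) proximal tubule nuclei made up 75.8%, 92.1% and 70.6% of the total, against 32.6% to 69.9% in the other 9 rats. The nuclei outside DTL(Shroom3+) also had the highest mitochondrial percentages there, with medians of 2.20%, 3.75% and 3.47% of UMIs, against at most 0.949% elsewhere. The contrasts of the DTL(Shroom3+) share of all nuclei and of the loop clusters were therefore also computed without these 3 rats. Those of the ratio to DTL, of UMIs and of mitochondrial percentages were not.

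DTL(Shroom3+) nuclei made up a smaller share of the kidney nuclei in obese than in lean rats, without passing the test across clusters. In lean rats RK1_4, RK3_4 and RK5_4 the share was 3.45%, 2.14% and 2.91%. In Obese rats RK7_4, RK9_4 and RK16_4 it was 0.947%, 0.172% and 2.28%. Among the 9 obese rats of all 3 groups, RK16_4 was the one that exceeded any lean rat. In Obese+sGCact rats RK43_4, RK45_4 and RK46_4 the share was 1.38%, 0.921% and 1.38%. In Obese+sGCstim rats RK57_4, RK58_4 and RK61_4 it was 1.07%, 0.922% and 1.98%. Both drug groups thus lay inside the range spanned by the Obese rats. The 95% Wilson intervals of these shares, which cover counting error only, were narrow beside the spread between rats, for example 2.04% to 2.55% in RK16_4 and 0.138% to 0.216% in RK9_4.

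Lean rats had a mean share of 2.83% ± 0.655 (SD, n = 3) and Obese rats one of 1.13% ± 1.07 (SD, n = 3). On the scale of log odds (natural logarithm, fitted by limma over all 25 clusters) the difference of Obese from Lean was -1.37 (SE 0.589), with a 95% interval from -2.64 to -0.09 and a limma adjusted p of 0.153 (Benjamini-Hochberg). The unadjusted p was under 0.05. In this contrast 3 of the 25 clusters, or 12%, passed an adjusted p of 0.05, and DTL(Shroom3+) was not among them. DTL, the other descending thin limb cluster, and TAL, the thick ascending limb, did pass. Their differences were -1.75 and -1.83 (limma adjusted p = 0.0323 for both). The share of DTL(Shroom3+) was lower in 8 of 9 pairs of an Obese and a Lean rat. An exact two-sided permutation test gave p = 0.2, where 3 rats against 3 cannot go below 0.1. One rat decided the call. Without RK16_4 the difference was -1.95 (limma adjusted p = 0.00955), whereas without RK9_4 it was -0.65 (limma adjusted p = 0.451). Leaving out RK7_4, RK9_4 and RK61_4 together leaves RK16_4 as the single Obese rat, the one with the highest share of that group, so the resulting -0.20 describes that rat and not the group.

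All 9 obese rats together had a mean share of 1.23% ± 0.625 (SD, n = 9), which was lower in 26 of 27 pairs with a lean rat. The limma log odds difference was -1.01 (SE 0.481, 95% interval -2.05 to 0.03, adjusted p = 0.233), in a contrast that called 1 of 25 clusters, or 4%. The exact permutation test of this single value gave p = 0.0182, and 0.0909 after Benjamini-Hochberg adjustment over the 5 contrasts. The limma call was gained without RK16_4 (-1.20, adjusted p = 0.0290) and also without RK7_4, RK9_4 and RK61_4 (-0.70, adjusted p = 0.0410), where the lone Obese rat is assumed to vary like the rats of the other groups.

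Treatment was not followed by a share that differed detectably from Obese. Obese+sGCact rats averaged 1.23% ± 0.267 (SD, n = 3) and Obese+sGCstim rats 1.32% ± 0.575 (SD, n = 3). The log odds differences from Obese were 0.52 (SE 0.589, limma adjusted p = 0.571) and 0.55 (SE 0.589, limma adjusted p = 0.701). Their 95% intervals ran from -0.75 to 1.79 and from -0.72 to 1.83, so that sizeable changes in either direction were within reach of the data. Obese+sGCact and Obese+sGCstim differed by -0.04 (95% interval -1.31 to 1.24, limma adjusted p = 0.990). In each of these 3 contrasts 0% of clusters passed. Both treatment differences turned negative without RK9_4, at -0.20 for Obese+sGCact and -0.16 for Obese+sGCstim.

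**Figure D1:**
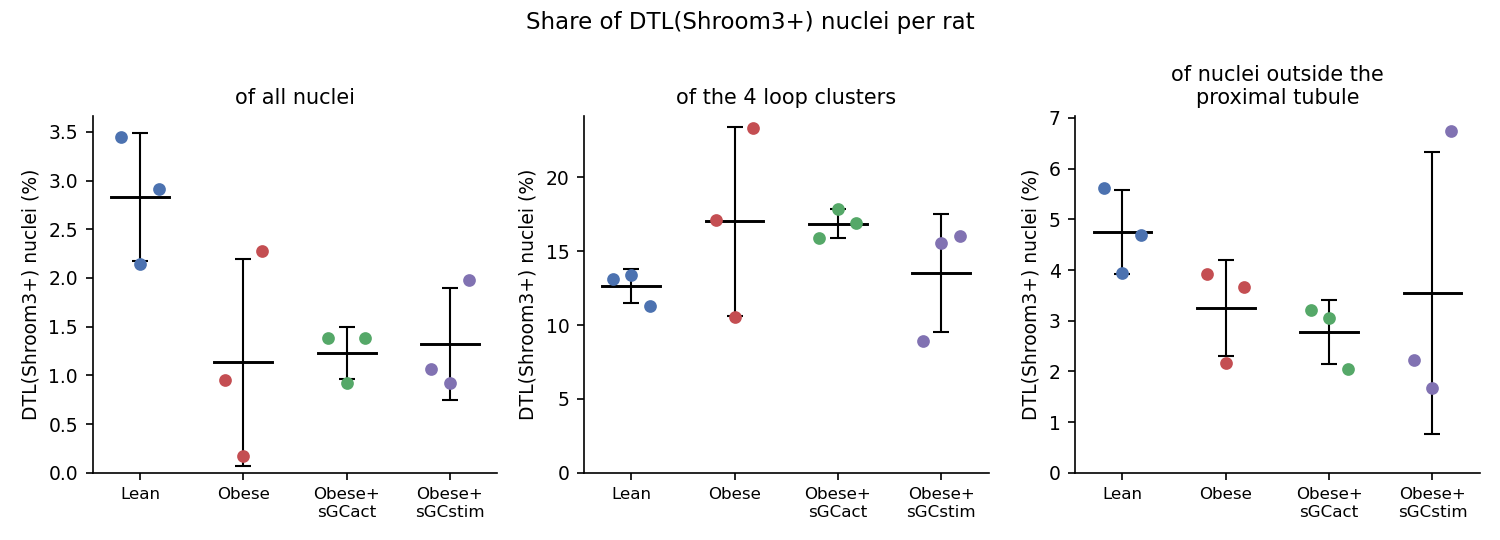
Share of DTL(Shroom3+) nuclei per rat, in percent of all nuclei (left), of the 4 loop of Henle clusters (middle) and of nuclei outside the proximal tubule (right). Points are rats, horizontal lines are means and error bars are 1 SD (n = 3 rats per group). Lean rats lie above 8 of the 9 obese rats on the left, at 2.14% to 3.45%, while in the middle they lie at 11.3% to 13.4%, within the range of the Obese rats.

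Within the loop of Henle the share of the cluster overlapped between lean and obese rats. The 4 loop clusters were DTL(Shroom3+), DTL, the ascending thin limb (ATL) and the thick ascending limb (TAL), the segment that reabsorbs salt without water. DTL(Shroom3+) gave 14.2% of the 22627 LOH nuclei, behind TAL with 17513 nuclei and ahead of DTL with 1191 and ATL with 685. As a share of the 4 loop clusters it took 13.2%, 13.4% and 11.3% in RK1_4, RK3_4 and RK5_4. It took 17.1%, 10.6% and 23.4% in RK7_4, RK9_4 and RK16_4. The Obese rats thus enclosed the lean range on both sides. In the Obese+sGCact rats RK43_4, RK45_4 and RK46_4 it took 15.9%, 17.9% and 16.9%, all above the lean rats. Obese+sGCact against Lean was not among the contrasts tested, and how many loop clusters separated these groups was not computed. In the Obese+sGCstim rats RK57_4, RK58_4 and RK61_4 the share was 8.89%, 15.6% and 16.1%. RK9_4 and RK57_4 lay below every lean rat.

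None of the 5 contrasts of this share passed limma across the 4 loop clusters, with log odds differences from -0.26 to 0.31 and adjusted p values from 0.386 to 0.899, and 0% of the loop clusters passed in any of them. The Obese against Lean difference was 0.31 (95% interval -0.29 to 0.90, limma adjusted p = 0.386). Among nuclei with 1000 to 2000 UMIs it was -0.46 (limma adjusted p = 0.315), and that of all obese rats was -0.63 (limma adjusted p = 0.132). TAL, the largest loop cluster, was also less frequent in obese kidneys. It made up 13.0% to 20.7% of all nuclei in lean rats and 1.29% to 6.59% in Obese rats. Outside the proximal tubule, DTL(Shroom3+) made up 5.62%, 3.95% and 4.69% in the lean rats against 3.92%, 2.17% and 3.66% in the Obese rats. These groups did not overlap, by a margin of 3.95% over 3.92% (exact permutation p = 0.1, the smallest possible, adjusted p = 0.409 over 5 contrasts). The limma log odds difference with this denominator was -0.41 (adjusted p = 0.498), against -1.37 among all nuclei. Among all nuclei, 12% of clusters were lower in every Obese than in every Lean rat. Outside the proximal tubule the percentage of clusters that separated in this way was not computed. RK61_4 had the highest DTL(Shroom3+) share of all rats outside the proximal tubule, at 6.73%. Every share depends on how many other nuclei the piece of kidney gave, and the part of that in these values was not tested.

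The spread of the cluster within a group was described by the chi-square of its counts over the rats, divided by the degrees of freedom, which is near 1 where rats vary by counting error alone and is usually larger between animals. Over all nuclei it was 24.4 in Lean, 324 in Obese, 11.6 in Obese+sGCact and 40.6 in Obese+sGCstim. Within the loop clusters it was 4.51, 25.2, 1.02 and 22.0. For a given spread between rats this value grows with the number of nuclei counted, which differed between groups and between denominators. Its sizes are therefore not comparable across them. With 3 rats a group, differences in spread between groups were not tested.

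The closest named relative is DTL, the other descending thin limb cluster, with 1193 nuclei. DTL(Shroom3+) outnumbered DTL in every rat, by a ratio of 2.05, 2.98 and 2.08 in the lean rats and 6.25, 1.44 and 4.67 in the Obese rats. The ratio was 2.83, 2.14 and 4.83 in the Obese+sGCact rats and 2.64, 4.35 and 3.53 in the Obese+sGCstim rats. On the log2 scale the mean ratio of Lean rats was 1.22 ± 0.306 (SD, n = 3) and that of Obese rats 1.78 ± 1.11 (SD, n = 3), a difference of 0.56 (exact permutation p = 0.4). It was 0.15 without RK7_4 and 1.19 without RK9_4. Over the 5 contrasts the adjusted permutation p was 1 throughout. DTL itself made up 0.719% to 1.68% of nuclei in lean and 0.120% to 0.562% in all obese rats, and these did not overlap, which held for 12% of clusters in this direction.

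The pair of descending thin limb clusters differed more in the depth of their nuclei. The limit of 1000 UMIs (unique molecular identifiers, which count the transcript molecules recovered from a nucleus) was first an alternative, and its use as a measure of its own was chosen after values were seen. The percentage of DTL(Shroom3+) nuclei with at least 1000 UMIs was 99.7%, 95.4% and 75.4% in the lean rats and 70.0%, 89.3% and 60.5% in the Obese rats. For DTL it was 100%, 98.2% and 92.4% in the lean rats and 31.3%, 30.8% and 23.4% in the Obese rats. Most DTL(Shroom3+) nuclei of Obese rats thus lay above the limit, and most DTL nuclei did not. In Obese rats the other loop clusters lay above it as well, with 86.8% to 100% of ATL and 75.5% to 87.5% of TAL nuclei. In that group DTL thus stood apart and not DTL(Shroom3+). In Obese+sGCact rats DTL(Shroom3+) reached 41.2%, 40.7% and 75.9%. DTL had 3 of 227 nuclei above the limit there and ATL 8 of 89, while TAL reached 69.4% to 90.2%. In Obese+sGCstim rats the values were 56.1%, 85.0% and 76.6% for DTL(Shroom3+) and 80.0%, 26.9% and 94.7% for DTL.

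The difference between both clusters, DTL(Shroom3+) minus DTL, averaged -6.71 percentage points in Lean and 44.8 in Obese rats. It was higher in 9 of 9 pairs, by 51.5 points (exact permutation p = 0.1, adjusted p = 0.25 over 5 contrasts). Across all obese rats it was 40.4 points above Lean and higher in 21 of 27 pairs (exact permutation p = 0.0909, adjusted p = 0.25). These sizes depend on the limit. At 750 UMIs the differences were 25.3 and 24.3 points (adjusted permutation p = 0.6 for both). The depth of whole rats also differed between the groups. All nuclei outside DTL(Shroom3+) had medians of 1711 to 2958 UMIs in lean rats and 780 to 1404 in Obese rats. In RK1_4 and RK3_4 at least 95.4% of both clusters lay above 1000 UMIs, which left little room for a difference. The part of whole-rat depth in these values was not tested. The ratio of the median UMIs of DTL(Shroom3+) to those of DTL was 0.765, 0.901 and 0.818 in lean rats and 1.85, 2.23 and 1.37 in Obese rats (exact permutation p = 0.1, adjusted p = 0.25). The log2 difference between these groups was 1.11 with medians and 0.73 with means over nuclei. In the remaining obese rats the ratio of medians ranged from 0.717 in RK57_4 to 2.02 in RK58_4.

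With the limit of 1000 UMIs few DTL nuclei were left to set a ratio of both clusters. In the Obese+sGCact rats RK43_4, RK45_4 and RK46_4, 121, 81 and 110 DTL(Shroom3+) nuclei stood beside 2, 0 and 1 DTL nuclei. In the Obese rats RK7_4, RK9_4 and RK16_4 there were 70, 67 and 181 beside 5, 16 and 15. The lean rats had 573, 310 and 371 beside 281, 107 and 219. DTL(Shroom3+) was thus the more frequent of the pair among deep nuclei in all of these rats. A fold for Obese+sGCact rats is set by the added 0.5 nuclei and is not read as a size. The differences that involve it are listed only among the alternatives at the end. On the log2 scale the mean ratio was 1.11 in Lean and 3.09 in Obese rats, a difference of 1.98 (exact permutation p = 0.1, adjusted p = 0.125).

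**Figure D2:**
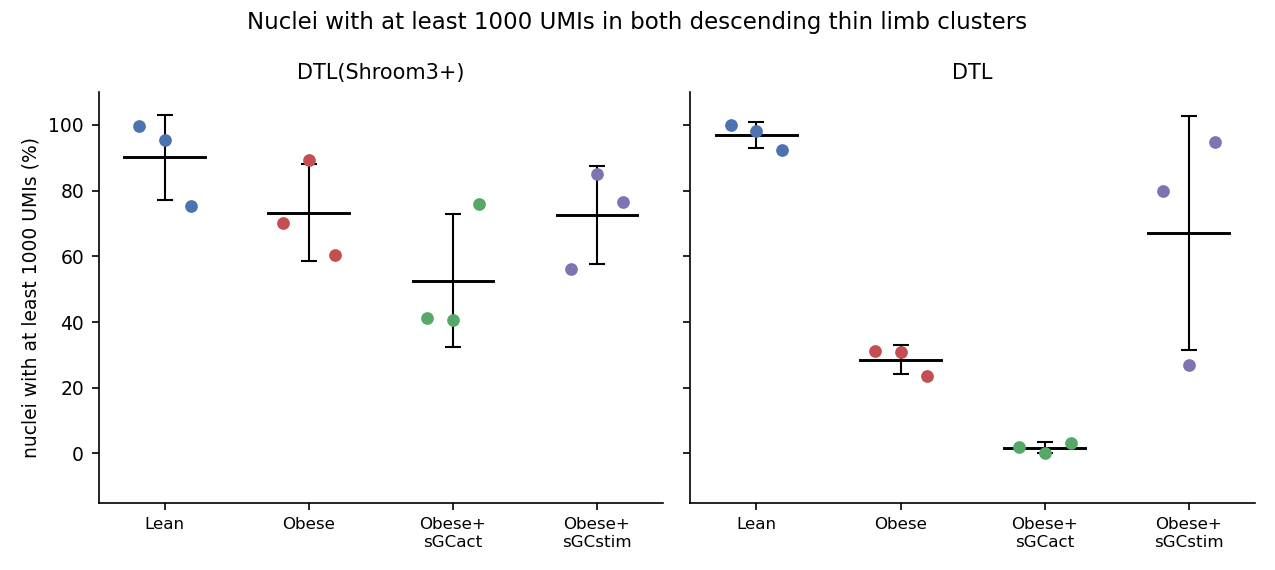
Percentage of nuclei with at least 1000 UMIs in DTL(Shroom3+) (left) and DTL (right), by group. Points are rats, horizontal lines are means and error bars are 1 SD (n = 3 rats per group), which can run past the possible range. Obese rats keep 60.5% to 89.3% of DTL(Shroom3+) nuclei above the limit but 23.4% to 31.3% of DTL nuclei. The other loop clusters, not shown, keep 86.8% to 100% (ATL) and 75.5% to 87.5% (TAL) in Obese rats.

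A DTL(Shroom3+) nucleus held a median of 1403 UMIs and 1003 expressed genes, with 5% of nuclei under 683 UMIs and 5% over 3108. Median UMIs per rat were 2106, 1694 and 1194 in the lean rats and 1304.5, 2021 and 1076 in the Obese rats. They were 867, 771 and 1458 in the Obese+sGCact rats and 1065, 1568 and 1382.5 in the Obese+sGCstim rats. The groups overlapped, with RK43_4 and RK45_4 as the shallowest. By limma over 24 clusters with enough nuclei, UMIs of DTL(Shroom3+) passed in 0 of 5 contrasts (adjusted p from 0.176 to 0.957, 0 at an unadjusted p under 0.05), where the contrasts called 16.7% of clusters (Obese against Lean), 8.33% (Obese+sGCact against Obese), 0%, 4.17% and 12.5% (all obese rats against Lean). Expressed genes per nucleus also passed in 0 of 5 contrasts (limma adjusted p from 0.183 to 0.971), where they called 20.8%, 8.33%, 0%, 4.17% and 16.7% of clusters in the same order.

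Set against the rest of the same rat, these nuclei were shallow in most rats, though not against DTL. Their median UMIs were below those of all other nuclei in 9 of 12 rats and below TAL in 10 of 12. They were above DTL in 7 of 12 rats and below it in 5. The exceptions to the first count were RK7_4, RK9_4 and RK61_4, the 3 rats rich in proximal tubule nuclei, where the ratio to other nuclei was 1.67, 2.25 and 1.42. In the other 9 rats it lay between 0.639 and 0.971. Among nuclei with 1000 to 2000 UMIs, DTL(Shroom3+) held between 909 and 1192 expressed genes by rat and exceeded the other nuclei in 9 of 12 rats, with a median difference of 42 genes over the 12 rats. Depth within this window was not matched, and the median UMIs of the cluster were higher than those of other nuclei in 5 of 12 rats, as in RK9_4 with 1502.5 against 1146. These comparisons between clusters are descriptions and were not tested.

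The share of DTL(Shroom3+) was also read within ranges of depth, so that rats were compared among nuclei of like UMI number. Among nuclei with 1500 to under 2000 UMIs the median share was 4.04% in Lean, 1.26% in Obese, 1.13% in Obese+sGCact and 1.03% in Obese+sGCstim rats. All Obese and Obese+sGCact rats lay below all lean rats there, since the highest of them had 1.83% and the lowest lean rat 1.97%. How many other clusters separated in this range was not computed. In both neighbouring ranges Obese and lean rats overlapped. From 1000 to under 1500 UMIs RK16_4 had 3.27% and the lowest lean rat 3.17%. From 2000 to under 3000 UMIs the lowest lean rat had 0.365%, below every Obese rat. With 3000 or more UMIs the medians were 0.988%, 0.545%, 0.346% and 0.340%, and the groups overlapped. From 750 to under 1000 UMIs the medians lay closer together, at 1.68% in Lean, 0.983% in Obese, 1.53% in Obese+sGCact and 1.20% in Obese+sGCstim. Under 750 UMIs the order was another. There RK1_4 had no nuclei, RK3_4 had 0% and RK5_4 1.39%. The medians were 0.570% in Obese, 1.42% in Obese+sGCact and 2.58% in Obese+sGCstim rats. Over 1000 to 2000 UMIs together the log odds difference of all obese rats from Lean was -1.19 (limma adjusted p = 0.124).

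**Figure D3:**
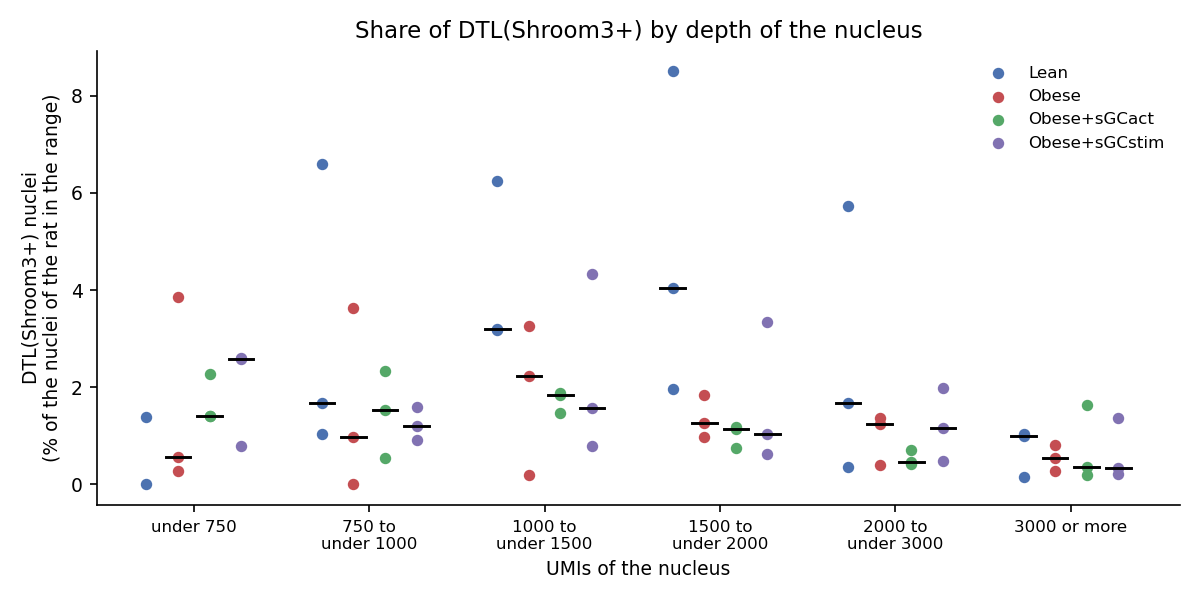
Share of DTL(Shroom3+) among the nuclei of a rat, in percent, within 6 ranges of UMIs per nucleus. Points are rats in the colour of their group and short lines are medians where 3 rats had nuclei in the range. The Lean median is the highest of the 4 from 750 UMIs upward, at 4.04% for 1500 to under 2000 UMIs, with overlap between rats in most ranges. Under 750 UMIs the lean rats RK3_4 and RK5_4 lie at 0% and 1.39%, below the Obese+sGCact median of 1.42% and the Obese+sGCstim median of 2.58%.

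The mitochondrial percentage of DTL(Shroom3+) nuclei varied widely between rats of 1 group. Over all 3211 nuclei the median was 0.457% of UMIs, with 36.9% of nuclei above 1%. The median per rat was 0.564%, 0.763% and 0.142% in the lean rats, and 0%, 0.262% and 1.95% in the Obese rats. It was 3.17%, 1.61% and 0.0263% in the Obese+sGCact rats and 0%, 0.0338% and 0.532% in the Obese+sGCstim rats. Each obese group except Obese+sGCstim thus held rats above 1% beside rats near 0. By limma, 0 of 5 contrasts passed (adjusted p from 0.707 to 0.917, 0 at an unadjusted p under 0.05), and between Obese+sGCact and Obese 4.17% of clusters did.

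The mitochondrial median of the cluster was above that of the other nuclei in 6 rats, below it in 5 and at 0 in both in 1. In RK7_4, RK9_4 and RK61_4, where the other nuclei had the medians of 2.20% to 3.75%, DTL(Shroom3+) had 0%, 0.262% and 0.532%. In RK16_4, RK43_4 and RK45_4 the order was the reverse, with 0.464%, 0.949% and 0.412% in other nuclei against 1.95%, 3.17% and 1.61% in the cluster. In RK46_4, RK57_4 and RK58_4 both were under 0.05%, and the lean rats had 0.142% to 0.763% in the cluster against 0% to 0.153%. In RK16_4, RK43_4 and RK45_4 DTL was higher still than DTL(Shroom3+), at 3.05%, 4.37% and 2.48%. Nuclei of the cluster with more than 1% mitochondrial UMIs were shallower than the others in all 12 rats. Their median was 1005.5 UMIs over 1186 nuclei, against 1600 UMIs over the 2025 nuclei at or below 1%.

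**Figure D4:**
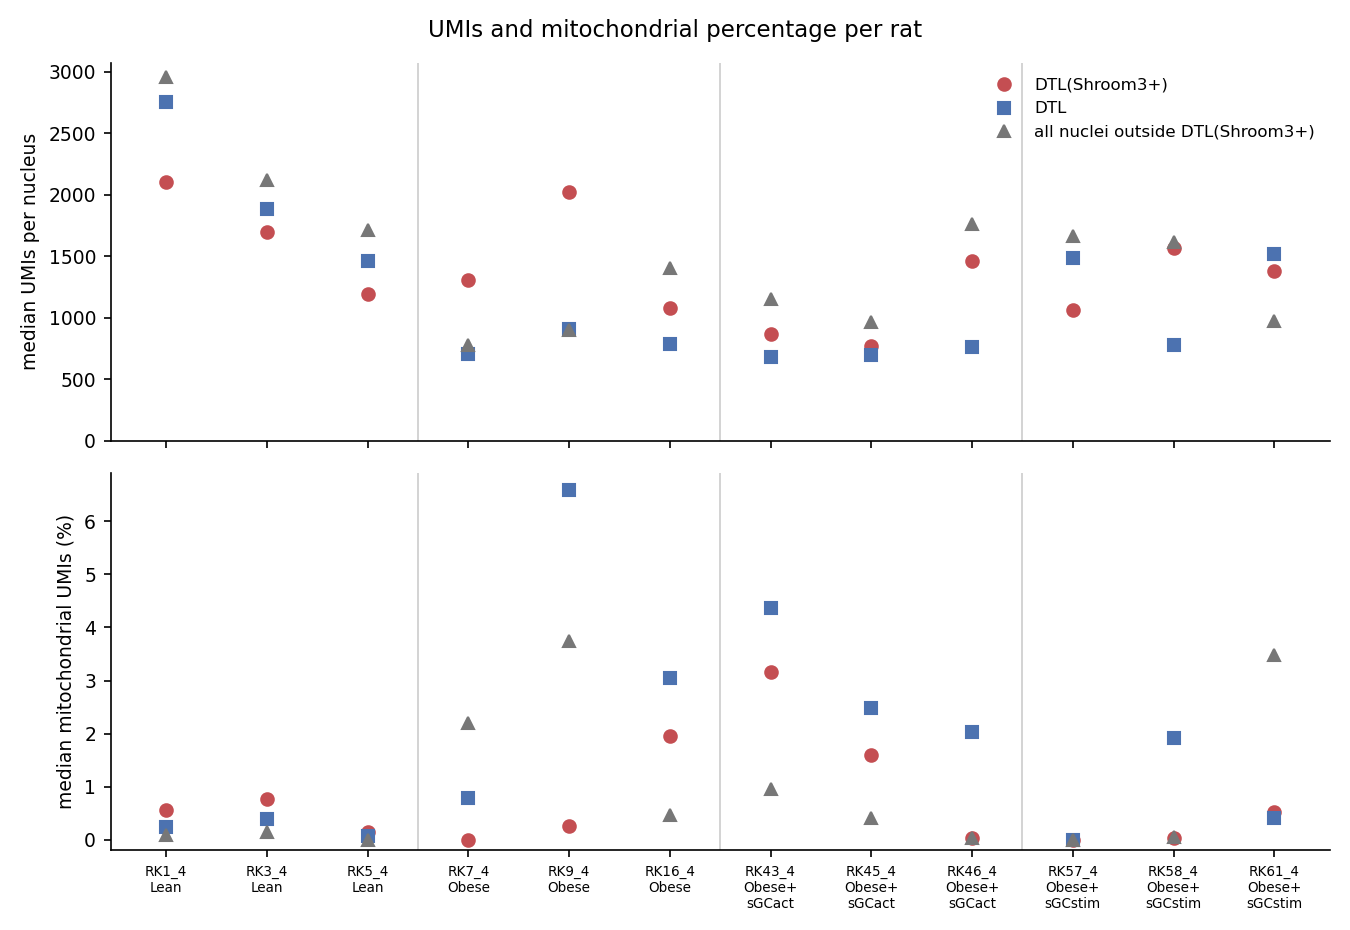
Median UMIs per nucleus (top) and median mitochondrial percentage of UMIs (bottom) for each of the 12 rats, in DTL(Shroom3+) nuclei (circles), DTL nuclei (squares) and all nuclei outside DTL(Shroom3+) (triangles). Circles lie above triangles in the top panel and below them in the bottom panel for RK7_4, RK9_4 and RK61_4, where the other nuclei have medians of 780, 900 and 975 UMIs.

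Cell-cycle scores of the cluster, computed by the authors from phase marker genes, were near 0 and did not differ detectably between groups. The mean S score per rat lay between -0.00526 and 0.0157 and the mean G2M score between -0.0193 and 0.00118. Neither passed in any of 5 contrasts by limma (adjusted p of at least 0.783 for S and 0.830 for G2M, 0 at an unadjusted p under 0.05). Between Obese and Lean, 0% of clusters passed for S and 25% for G2M.

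In the deposited 2-dimensional embedding, whose coordinates have no unit, DTL(Shroom3+) formed an elongated group between other clusters. Its median point lay nearest to that of DTL, at a distance of 2.37, followed by SMC/Peri (smooth muscle cells and pericytes) at 2.74, ATL at 3.57 and Fib/Peri (fibroblasts and pericytes) at 3.64. TAL, which shares its high-level type, lay farther at 6.33. Of the 20 nearest neighbours of its nuclei 90.5% belonged to the cluster itself, 3.16% to SMC/Peri, 2.70% to Fib/Peri and 1.54% to DTL. For 65.8% of nuclei all neighbours were of the cluster, and for 7.32% under 50% were. This last share ranged from 1.51% in RK45_4 to 15.2% in RK61_4. Distances in such an embedding are a description of the annotation and carry no test.

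Along its long axis the cluster was cut into 3 parts of 1069 nuclei each, leaving out 4 nuclei far from its centre. This cut was made after values were seen. The lower part lay nearest to SMC/Peri, at a distance of 1.89, and the upper part nearest to DTL, at 1.71. Lean rats supplied 52.0% of the upper part and 38.1% of the lower. The upper part held 42.6%, 37.5% and 38.4% of the cluster in the lean rats against 14.0%, 21.3% and 20.7% in the Obese rats, so that these did not overlap. It held 33.0%, 47.2% and 18.6% in the Obese+sGCact rats and 28.8%, 23.0% and 30.1% in the Obese+sGCstim rats. How often other clusters or other cuts would separate lean from Obese rats was not computed, and no test was run on these parts.

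On the DTL side of the cluster the nuclei of Obese and Obese+sGCact rats were shallower than those of lean rats. This was not particular to that side. All nuclei outside DTL(Shroom3+) had medians of 2958, 2120 and 1711 UMIs in the lean rats and 780, 900 and 1404 in the Obese rats. In the Obese+sGCact rats they had 1154, 964 and 1764. The number of other clusters whose depth separated these groups was not computed. In the upper part median UMIs were 2365, 1655 and 1340 in the lean rats and 696, 688 and 913 in the Obese+sGCact rats. Obese rats had 997.5, 1287 and 822, all below the lean rats, while Obese+sGCstim rats had 1108, 1103 and 1484 and overlapped them. In RK43_4, RK45_4 and RK16_4, 100%, 93.6% and 91.9% of the upper part exceeded 1% mitochondrial UMIs, against 3.70% to 30.3% in lean rats. The other Obese and Obese+sGCact rats, RK7_4, RK9_4 and RK46_4, had 14.3%, 31.3% and 29.6%. In the lower part the median UMIs of the groups overlapped, at 1180 to 2143 in Lean and 1242 to 2670.5 in Obese rats. Along the axis the order was mixed, since the lower part had more such nuclei than the upper in 6 of 12 rats, for example 67.6% against 16.7% in RK1_4. Because the clusters were drawn from the same expression values as the embedding, where the border with DTL was set and how deep the nuclei beside it were cannot be told apart.

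**Figure D5:**
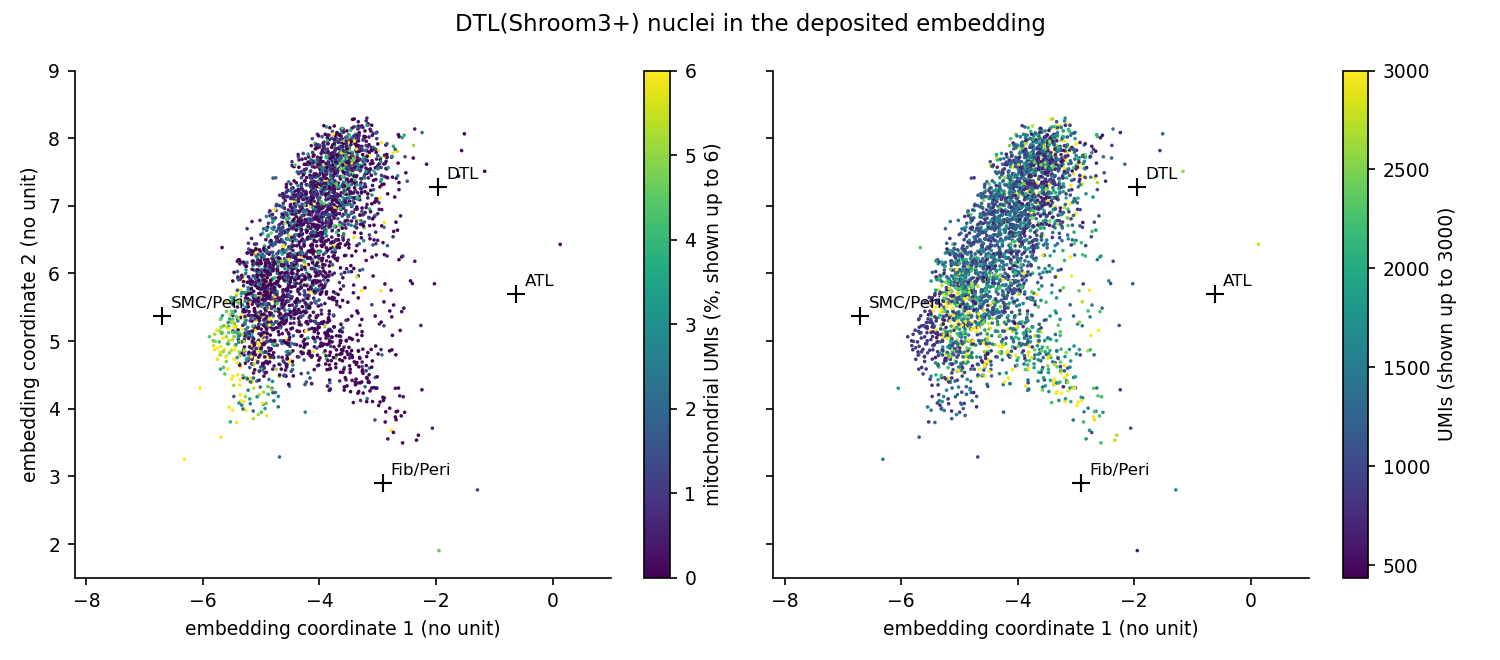
DTL(Shroom3+) nuclei in the deposited embedding (coordinates without unit), coloured by mitochondrial percentage (left) and by UMIs (right), with crosses at the median points of neighbouring clusters. The upper end of the cluster points to DTL, at a distance of 1.71 for the upper part, and the lower end to SMC/Peri, at 1.89 for the lower part.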

How the data were processed

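The authors sequenced droplet libraries of single nuclei with UMIs and aligned the reads to the rat genome (rn6, pre-mRNA annotation) with Cell Ranger. Ambient RNA and doublets were removed, nuclei with fewer than 200 or more than 3000 genes, or with a mitochondrial content above 15%, were dropped, and the 12 rats were merged, batch-corrected with Harmony and clustered in Seurat. UMIs per nucleus were deposited as counts without normalization, and the mitochondrial measure was deposited in percent of these UMIs. Cell-cycle scores (S and G2M) were deposited too and have no fixed range. Expressed genes, cluster names and coordinates were deposited as other values. The authors' table names rats without replicate numbers, and groups were taken from it.

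Per rat, shares were computed as log odds with 0.5 nuclei added to a cluster and 1 to the total, and fitted over 4 groups of 3 rats with limma 3.58.1 in R 4.3.3. The 5 contrasts were Obese against Lean, each drug group against Obese, both drug groups against each other, and all obese rats against Lean, with Benjamini-Hochberg adjustment over clusters and a threshold of 0.05. Medians of UMIs, genes and mitochondrial percentage (log2, with 0.1 added to the percentage) and mean scores were fitted likewise for clusters with at least 5 nuclei in a rat. Single values were compared by exact two-sided permutation tests over rats, in which 3 against 3 cannot go below 0.1 and 9 against 3 not below 0.00909. The script was tested on simulated data. The members, groupings and tests were chosen with earlier results of these data known. The named groups are the loop of Henle clusters and the nearest clusters in the embedding. Alternatives were other scales and denominators, edgeR 4.0.16, limits on UMIs and mitochondrial percentage, thinning to 10488 nuclei per rat, and each rat left out in turn. Tables used pandas 2.3.3, numpy 2.4.6 and scipy 1.17.1.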

Additional observations from a re-analysis of the deposited data

How the results depend on the processing

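No paired analysis was possible because the rats in the deposited table carry no replicate number. The groups also held different rats, so that a replicate number alone would not have made pairs of them. Differences between clusters, such as DTL(Shroom3+) minus DTL, were taken within each rat. Of 451 recomputed values, 413 kept their direction and their side of the threshold, 34 changed sign, 3 gained a call and 1 count moved. The sign changes were all in contrasts that passed no test. For the share of all nuclei, Obese+sGCact against Obese (0.52) became -0.0092 on the centred log-ratio, -0.15 without proximal tubule nuclei, -0.21 with at least 1000 UMIs, -0.34 with at most 1% mitochondrial UMIs and -0.64 without RK7_4, RK9_4 and RK61_4. Obese+sGCstim against Obese (0.55) became -0.071 without proximal tubule nuclei and -0.84 without those 3 rats, which also moved the difference of both drugs (-0.04) to 0.20 and gave all obese rats against Lean its call (-0.70). Without those 3 rats the Obese arm is RK16_4 alone, so these values compare a group with 1 rat. Obese against Lean and all obese rats against Lean were negative under every alternative run, at -0.41 and -0.49 without proximal tubule nuclei, and the former at -0.20 without the 3 rats.

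For the share of the loop clusters, Obese against Lean (0.31) became -0.46 and all obese rats against Lean (0.23) -0.63 with 1000 to 2000 UMIs. Obese+sGCact against Obese (0.04) became -0.13 in that range, -0.27 with at least 1000 UMIs, -0.45 with at most 1% mitochondrial UMIs and -0.41 without the 3 rats, and the difference of both drugs (0.29) became -0.14 with at most 1% mitochondrial UMIs. For the log2 ratio to DTL, Obese+sGCact against Obese (-0.17) became 3.30, 1.76 and 3.00, and the difference of both drugs (-0.15) became 4.36, 2.40 and 4.18, with at least 1000 UMIs, at most 1% mitochondrial UMIs and 1000 to 2000 UMIs. These 6 values rest on 0 to 8 DTL nuclei in each Obese+sGCact rat and are not exact, since the added 0.5 nuclei weigh on them. The cause of the other changes was not tested.

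With each rat left out in turn, the share of all nuclei ranged from -1.95 to -0.65 for Obese against Lean, from -1.20 to -0.77 for all obese rats against Lean, from -0.20 to 1.10 for Obese+sGCact and -0.16 to 1.13 for Obese+sGCstim against Obese, and from -0.19 to 0.20 between the drugs. The share of the loop clusters ranged from 0.09 to 0.56 for Obese against Lean, from 0.16 to 0.32 for all obese rats against Lean, from -0.21 to 0.26 and from -0.51 to -0.04 for Obese+sGCact and Obese+sGCstim against Obese, and from 0.08 to 0.41 between the drugs. The log2 ratio to DTL ranged from 0.15 to 1.19 for Obese against Lean and from 0.39 to 0.68 for all obese rats against Lean, and from -0.80 to 0.24, from -0.64 to 0.40 and from -0.47 to 0.11 for Obese+sGCact and Obese+sGCstim against Obese and between the drugs. Expressed genes per nucleus passed in 0 to 1 of 5 contrasts, the 1 without RK5_4 (limma adjusted p = 0.0431). The range of 1000 to 2000 UMIs, the joint omission of 3 rats and the comparisons of depth with DTL were chosen after seeing the data. With 3 rats a group, the 95% intervals of the drug contrasts reach 1.83 in log odds. Ratios to DTL rest on as few as 16 DTL nuclei in a rat, and on fewer under the limits on UMIs and mitochondrial percentage.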
